A study of Mus musculus with 6 samples.

Results

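Pdyn, Penk, Adcyap1 and Vip encode neuropeptide precursors, and they were taken by gene symbol from the authors' table of hippocampal genes that differed between mice given CI-994 and mice given its vehicle (VEH). All 4 genes were found among the 475 in the table. Since the table lists changed genes only, a place in it is itself a call by the authors. RNA had been sequenced from whole hippocampi of 1 hemisphere in 6 C57Bl/6 mice aged 4 months, 3 with CI-994 and 3 with VEH. CI-994 is an inhibitor of class I histone deacetylases and was injected daily at 30 mg/kg, while the VEH mice were injected daily with its vehicle. Both groups had undergone contextual fear conditioning, a recall of that memory and spaced extinction training, so neither was naive, and tissue was taken 1 h after the final session. The labels do not state the sex of the mice, and sex-linked genes differed between the groups, as given below.

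Neuropeptides are cut from larger precursor proteins in dense-core vesicles and act on G protein-coupled receptors. Prodynorphin, the product of Pdyn, yields dynorphins and neoendorphins, which prefer the kappa opioid receptor. In the rodent hippocampus these peptides are stored mainly in the mossy fibres, the axons of dentate granule cells. Proenkephalin, the product of Penk, yields the enkephalins, ligands of delta and mu opioid receptors, and is made in granule cells and in some interneurons. Adcyap1 encodes PACAP, and Vip encodes vasoactive intestinal peptide, a related peptide of the secretin family that shares receptors with PACAP. Vip marks a class of GABAergic interneurons that largely inhibit other interneurons.

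In the group values, the 3 precursors Pdyn, Penk and Adcyap1 were lower and Vip was higher in CI-994 hippocampi. Pdyn, Penk and Adcyap1 each stood at 35.0 to 39.6% of their VEH value, and Vip stood at 161% of its VEH value. Each group value combines 3 mice and came without an error, so no spread between mice stands beside these values, and whether single mice of the groups overlap cannot be told. The group values are labelled by treatment, but the log2 column of the same table, headed as CI-994 against VEH, has the opposite sign in all 475 genes. Directions here follow the labelled group values and would turn around if those labels were exchanged. In tissue RNA, fewer cells of a type and less RNA per cell cannot be told apart.

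The start sites of the genes are shown first because Adcyap1 and Vip, the related pair that differed in direction, hold the same short run near their starts. The cAMP response element, the binding motif of CREB, is TGACGTCA. RefSeq windows from 250 bases before to 50 bases after a start were at hand for 3 of the 4 genes on build GRCm38.p6, and Penk was not matched. They were searched on both strands for TGACGTCA, for its first 6 bases TGACGT, which every full element also holds, and for TGANTCA. With N as any base, TGANTCA takes in the motif of AP-1 but is wider than it. Matches are in capitals below. Each window is written in the direction of transcription.

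Vip, chr10:5638968-5639267, plus strand: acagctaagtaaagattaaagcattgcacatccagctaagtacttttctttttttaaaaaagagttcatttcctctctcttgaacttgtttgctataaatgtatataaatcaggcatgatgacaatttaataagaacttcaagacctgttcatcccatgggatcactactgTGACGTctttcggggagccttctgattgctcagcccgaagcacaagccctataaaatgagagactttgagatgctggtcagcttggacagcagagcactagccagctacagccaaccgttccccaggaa

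Adcyap1, chr17:93198767-93199066, plus strand: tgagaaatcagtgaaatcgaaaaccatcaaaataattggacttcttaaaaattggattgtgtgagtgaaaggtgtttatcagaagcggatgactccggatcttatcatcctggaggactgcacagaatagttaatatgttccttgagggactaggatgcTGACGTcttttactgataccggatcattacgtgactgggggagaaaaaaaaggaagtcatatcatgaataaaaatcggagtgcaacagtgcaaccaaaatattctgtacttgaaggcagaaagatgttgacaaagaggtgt

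Pdyn, chr2:129699889-129700188, minus strand: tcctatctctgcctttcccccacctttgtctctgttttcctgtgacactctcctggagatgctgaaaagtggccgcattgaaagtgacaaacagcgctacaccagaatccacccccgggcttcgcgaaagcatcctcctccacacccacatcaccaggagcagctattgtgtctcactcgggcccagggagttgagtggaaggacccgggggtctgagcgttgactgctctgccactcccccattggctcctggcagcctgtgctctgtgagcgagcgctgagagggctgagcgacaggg

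TGACGT began 79 bases before the start of Vip and 91 bases before the upstream start of Adcyap1. A further Adcyap1 window, whose start lies downstream, overlaps the one printed and holds the same match, 242 bases before that start. None of these windows, nor the 2 of Pdyn, held TGACGTCA or TGANTCA, and the Pdyn windows held no match to the 3 motifs. Of all 32817 mouse windows, 7.51% held TGACGT, 1.79% held TGACGTCA and 7.81% held TGANTCA. Of the 442 windows that belong to listed genes, 7.01% held TGACGT, 1.58% held TGACGTCA and 6.33% held TGANTCA. In Vip and Adcyap1 the match extended to the same run of 10 bases, TGACGTCTTT. It occurred in 23 of the 32817 windows (0.0701%), and the genes of the table that held it were Adcyap1, Vip and Dusp1. This run was found by comparing the printed windows, so its rarity is a description and no test. A match shows letters in these windows and not binding, and the genes that shared it differed in direction. Dusp1, a phosphatase induced by neuronal activity, was at 12.1 units in CI-994 and 6.36 units in VEH.

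Among the opioid precursors, Pdyn was at 3.47 units in CI-994 and 9.90 units in VEH. This is a log2 ratio of -1.51 (2.86-fold lower in CI-994), with a p-value of 0.00325 in the authors' deposited table. The listed locus (mm9, chromosome 2, 129513736 to 129515604) spans 1869 bases. In GENCODE M21, a newer annotation on another build, the minus-strand gene spans 13280 bases, so the listed locus is 14.1% as long. Pdyn was 1 of 10 genes, of the 474 matched to that annotation, listed at under 20% of the annotated span, and the median was 99.9%. Which exons of Pdyn the value covers is not stated in the sources at hand.

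Penk was at 9.91 units in CI-994 and 27.3 units in VEH, a log2 ratio of -1.46 (2.76-fold lower in CI-994). Its p-value in the authors' deposited table was 1.81e-08, the sixth smallest of the 34 genes that were at least 2-fold lower. The folds of Pdyn and Penk differed by a factor of 1.04, and without values per mouse that difference was not tested. The listed locus of Penk (mm9, chromosome 4, 4060682 to 4065592) spans 92.9% of the annotated length of the minus-strand gene. In GENCODE M21 a noncoding gene on the opposite strand, A830012C17Rik, overlaps Penk by 499 bases, and the sources at hand do not say whether counting used strand, so reads of that stretch could belong to either gene.

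**Figure D1:**
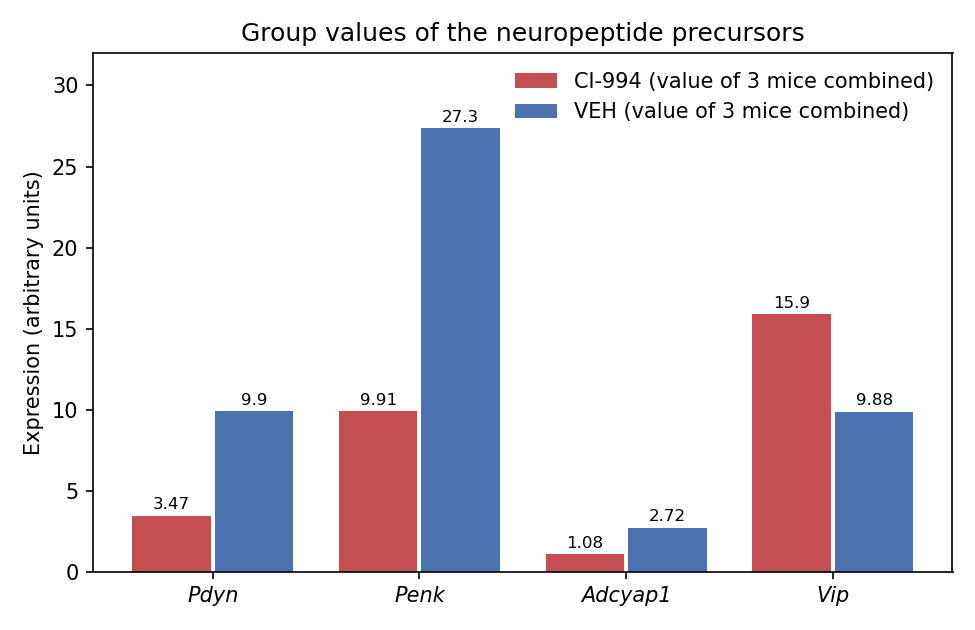
Authors' group values in arbitrary units (bars starting at 0) for each precursor, CI-994 in red and VEH in blue, without error bars because 1 value per group was deposited. Pdyn, Penk and Adcyap1 are lower in CI-994 and Vip is higher (15.9 against 9.88 units), and bars are to be compared within a gene only, since length scaling is not given.

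In the PACAP and VIP pair, Adcyap1 was at 1.08 units in CI-994 and 2.72 units in VEH, a log2 ratio of -1.34 (2.53-fold lower in CI-994). Its p-value in the authors' deposited table was 0.00968. Its listed locus (mm9, chromosome 17, 93598761 to 93604829) spans 80.7% of the annotated length. Adding 1 unit to both groups brought its log2 ratio to -0.84, the largest shift of the 4 genes under this setting, as its CI-994 value is close to 1 unit.

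Vip was at 15.9 units in CI-994 and 9.88 units in VEH. It had a log2 ratio of 0.69 (1.61-fold higher in CI-994) and a p-value of 0.00683 in the authors' deposited table. Its listed locus (mm9, chromosome 10, 4698926 to 4707323) spans nearly the whole annotated gene, 8398 against 8400 bases. The log2 ratios of Adcyap1 and Vip lay 2.02 apart, that is, the ratio of Adcyap1 to Vip was 4.06-fold lower in CI-994 than in VEH. No test of that difference could be made from 1 value per group.

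The 3 lower precursors lay near the low end of the ranking, and Vip was among the smaller increases. Counted from the lowest of the 475 log2 ratios, Pdyn was 10th, Penk 11th and Adcyap1 17th. Vip was 128th from the top among the 199 genes that were higher. Of the 4 precursors, 3 were lower, beside 58.1% of all genes in the table, and 1 was higher, beside 41.9%. The same 3 were at least 2-fold lower, beside 7.16% of all genes in the table. The 4 genes were chosen with earlier results of these data known, so these counts are a description and no test. In the table as a whole the median log2 ratio was -0.34, and with that median subtracted the 4 ratios were -1.17 for Pdyn, -1.12 for Penk, -0.99 for Adcyap1 and 1.03 for Vip. As the table omits genes without a call, its median does not show how the whole libraries were scaled.

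**Figure D2:**
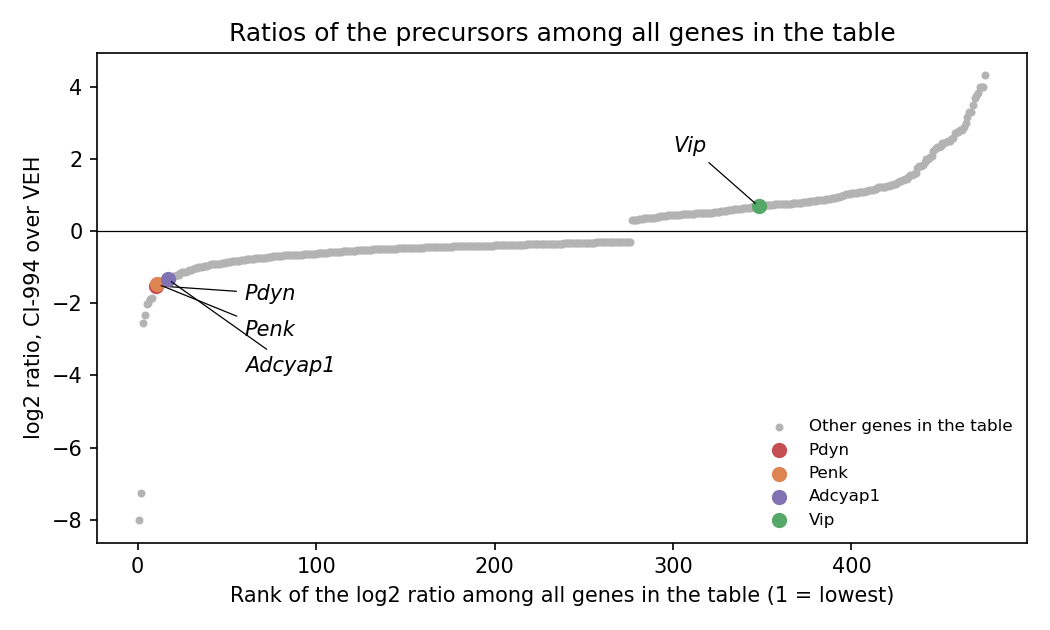
Log2 ratio of CI-994 over VEH for each of the 475 genes against its rank, with the precursors coloured and other genes grey. Pdyn, Penk and Adcyap1 sit at ranks 10, 11 and 17 from the lowest, and Vip sits on the shallow part of the positive side.

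The precursors differed far more in their p-values than in their folds. Pdyn and Penk had nearly the same fold, yet their p-values in the authors' deposited table were 0.00325 and 1.81e-08. Among the 34 genes at least 2-fold lower, the p of Penk ranked 6th, that of Pdyn 19th and that of Adcyap1 26th. Of the 199 higher genes, 98 had a smaller p than Vip. How many genes entered the authors' test is unknown, so the deposited p-values were also adjusted by Benjamini-Hochberg over an assumed 15000 genes. Penk alone of the precursors stayed under 0.05, with an adjusted p of 7.99e-06 from the p-values of the authors' deposited table, where 21.1% of all genes in the table did. The adjusted p was 0.305 for Pdyn, 0.507 for Vip and 0.631 for Adcyap1, and the same division held over 10000 and over 20000 assumed genes. Missing that threshold does not show that these 3 genes did not differ.

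**Figure D3:**
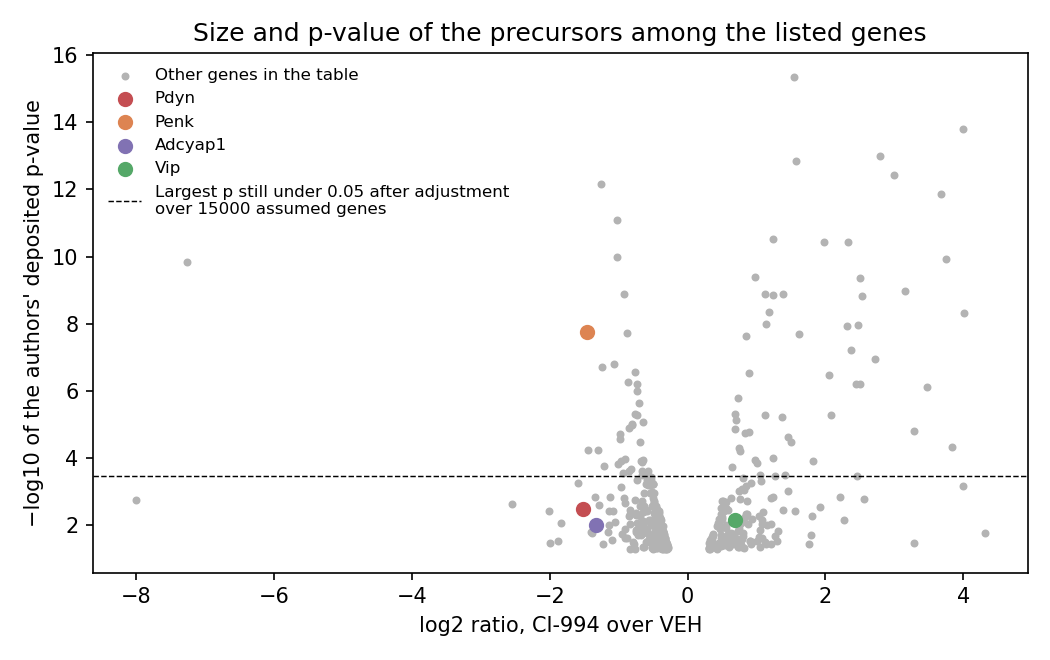
Authors' deposited p-value as −log10 against the log2 ratio of CI-994 over VEH for the genes of the table, leaving out 6 genes listed with p of 0. Penk lies above the dashed line, the largest p still under 0.05 after adjustment over 15000 assumed genes, while Pdyn, Adcyap1 and Vip lie below it.

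No other gene on the lists of neuropeptide precursors or of the matching receptors was in the table. The precursor list held 65 further gene symbols, among them Npy, Sst, Cck, Tac1, Crh and Pnoc, and 0 of them were listed. Pomc and Cartpt were counted under an alias as well, so the number of genes is slightly smaller. Of the 7 opioid, PACAP and VIP receptor genes (Oprk1, Oprd1, Oprm1, Oprl1, Adcyap1r1, Vipr1 and Vipr2) 0 were listed as well. Genes outside the table have no value here, so this says only that the authors did not list them. Among 42 receptors for other neuropeptides, 3 were listed, each lower in CI-994: the neuropeptide Y receptors Npy2r (17.1 units in CI-994 and 29.9 in VEH, log2 ratio -0.81), Npy5r (2.36 and 4.07 units, -0.78) and Npy1r (9.70 and 14.6 units, -0.59). Of 30 genes for peptide processing and dense-core vesicles only Ptprn2, a phosphatase-like protein of the vesicle membrane, was listed, at 51.8 units in CI-994 and 86.1 units in VEH (log2 ratio -0.73). The convertases Pcsk1 and Pcsk2, the carboxypeptidase Cpe and the granins were not in the table. The peptidase Ace, which was not on this list, was higher, at 13.8 units in CI-994 and 3.46 units in VEH (log2 ratio 1.99).

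Granule cells of the dentate gyrus make both dynorphin and enkephalin, and their markers were lower in the same comparison. Of 28 markers, a list without Pdyn and Penk, the table held 18, each of them lower, beside 58.1% of all genes in the table. Their median log2 ratio was -0.77. Their summed values, in which genes with high values weigh most, were 233 units in CI-994 and 420 units in VEH. The list was chosen with earlier results of these data known, so its common direction is a description and no test. The 4 defining markers were among them: C1ql2, a synaptic organiser at mossy fibres (10.5 units in CI-994 and 52.5 in VEH, log2 ratio -2.32), the desmosomal protein Dsp (5.59 and 13.4 units, -1.26), the transcription factor Prox1 (12.6 and 23.1 units, -0.87) and the calcium-binding protein Calb1 (35.0 and 44.5 units, -0.35). The ratios of Pdyn, Penk and Adcyap1 were each below those of 17 of the 18 markers, with C1ql2 as the exception. No list of pyramidal cell markers was set beside this one, so whether the lower values were particular to granule cells was not tested. The part of the granule cell markers in the values of Pdyn and Penk was not tested either.

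For Vip and Adcyap1 the cell type markers gave less. Of 34 GABAergic interneuron markers, a list without Vip, 3 were listed, each lower in CI-994: Prox1, which is also on the granule cell list, Calb2 (12.1 units in CI-994 and 17.3 in VEH, log2 ratio -0.52) and Reln (5.74 and 7.50 units, -0.39). The defining markers Gad1, Gad2 and Slc32a1 were not listed, and Vip was thus higher without another marker of this list in the table that was higher. Of 11 markers of mossy cells, hilar neurons that express PACAP in mice, Calb2 was the only one in the table.

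Other brain tissue carries these precursors too, and striatal projection neurons make dynorphin or enkephalin. Of 20 striatal marker symbols, with Drd1a and its alias Drd1 both counted, 3 were in the table. Gng7 (log2 ratio -0.36) and Rasd2 (-0.34) were lower and Ppp1r1b (0.46) was higher. The striatal markers Drd1a, Drd2, Adora2a and Rgs9 were not listed. The table held 28 of 30 choroid plexus markers, each of them higher in CI-994, beside 41.9% of all genes in the table. This list too was chosen with earlier results known. The listed choroid plexus markers had a median log2 ratio of 2.52, and Ttr and Mfrp were not in the table. Their summed values were 676 units in CI-994 and 153 units in VEH, of which Enpp2 alone gave 377 and 75.3 units. Xist was at 25.3 units in CI-994 and 8.46 units in VEH. The Y-linked Ddx3y was at 0.0503 units in CI-994 and 7.73 units in VEH, and the Y-linked Uty at 0.00821 and 2.12 units. By these genes the sex make-up of the groups differed. Whether choroid plexus tissue or the sex of the mice had a part in the precursor values was not tested. Both sets of markers differed along with the treatment, so neither can be told apart from it.

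Dynorphin, enkephalin, PACAP and VIP precursors are all known as genes that neuronal activity or cAMP can induce, so activity-induced and CREB-pathway genes were set beside them. Of 40 such genes 9 were in the table, 5 higher and 4 lower, beside 41.9% higher and 58.1% lower of all genes in the table. The transcription factors Npas4 (4.43 units in CI-994 and 0.887 in VEH, log2 ratio 2.32) and Fos (12.3 and 4.03 units, 1.61) had the largest ratios, followed by Dusp1 (0.93), Arc (0.85) and Gadd45b (0.84). Lower were Cebpb (-0.65), Jun (-0.48), Per1 (-0.40) and Crtc1 (-0.39), the last a CREB coactivator. Vip had the direction of the 5 higher genes, and Pdyn, Penk and Adcyap1 had that of the 4 lower ones, so the list had no single direction.

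**Figure D4:**
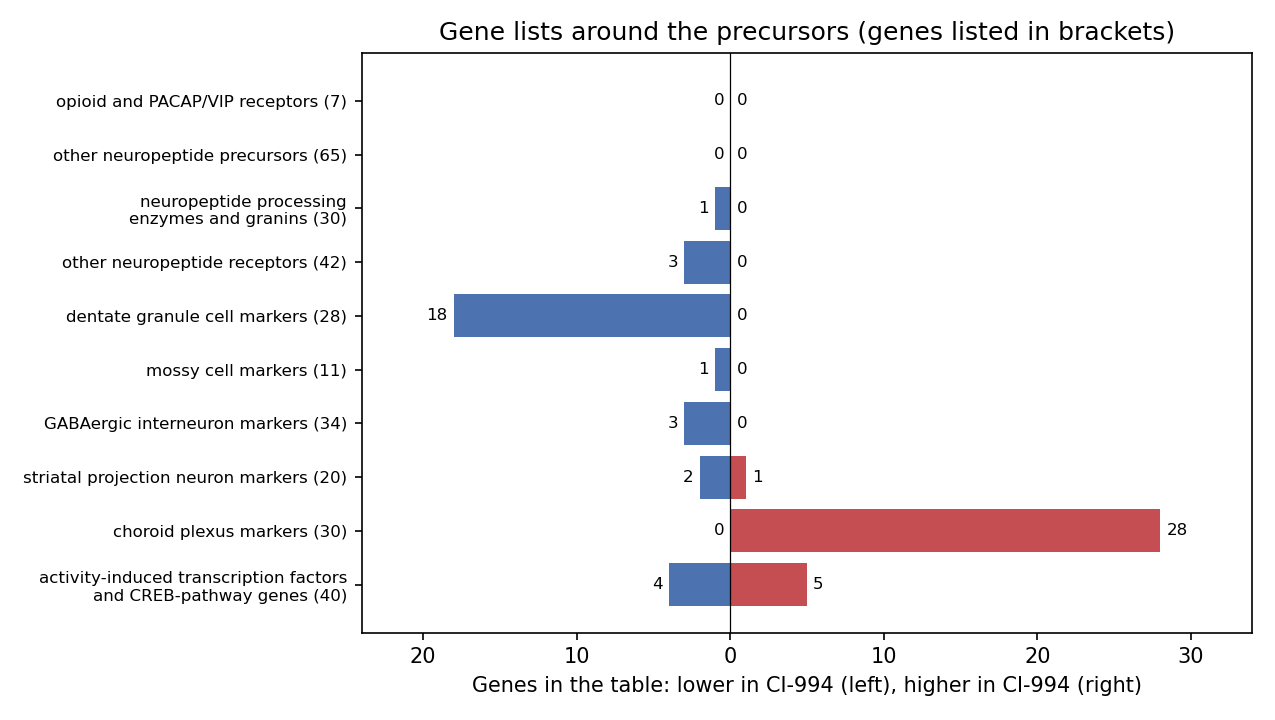
Number of genes in the table that were lower (blue, to the left) or higher (red, to the right) in CI-994 for each list, with the length of the list in brackets. The listed granule cell markers are all lower (18 genes) and the listed choroid plexus markers all higher (28 genes), on lists chosen with earlier results known. Of 65 other precursor symbols and 7 opioid, PACAP and VIP receptors, 0 are in the table.

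The genes with the most similar pair of group values were found as those nearest by Euclidean distance in log2 units. The likeness rests on the 2 group values of each gene. It weighs the level of a gene as well as its ratio, and length scaling between genes is not given. Penk, with nearly the same ratio as Pdyn, lay at a distance of 2.11 from it. For Pdyn these were Cacng5, a protein associated with AMPA receptors (distance 0.37, 2.96 units in CI-994 and 8.05 in VEH), Gsg1l (0.44) and Tspan18 (0.48). For Penk they were Sema5a, an axon guidance protein (0.31, 11.4 and 23.2 units), Prox1 (0.43) and Grm2, a presynaptic glutamate receptor (0.52). For Adcyap1 they were Lect1 (0.087, 1.10 and 2.88 units), Aldh1a2 (0.14) and Cntnap5a (0.21), and for Vip A930011O12Rik (0.065, 16.6 and 9.91 units), Vamp8 (0.083) and C1qtnf5 (0.13). Cacng5 also followed Penk directly in the ranking of ratios, at -1.44.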

How the data were processed

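RNA of 3 CI-994 and 3 VEH hippocampi was processed with TopHat and Cuffdiff on build mm9, per the submitters' processing notes; the sources at hand do not state versions, annotation, normalisation or strand handling. The authors deposited an expression signal in arbitrary units, 1 value per group with libraries already combined, a log2 ratio and a p-value, per the file headers. The deposited log2 ratio equals VEH over CI-994 within 0.0001 in all 475 genes, so ratios were recomputed as CI-994 over VEH with no pseudocount. The deposited p-values come from the authors' test, all lie under 0.05, and the header does not call them adjusted. Depth is unknown, and values per mouse were not analysed here.

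Members and the 10 gene lists were chosen with earlier results of these data known. Genes named were the 4 members, up to 12 listed genes of each list by size, the 3 genes nearest to each member and neighbours in rank. Xist, Ddx3y, Uty, the mention of Ace beside the processing genes and the comparison of Dusp1 in the promoter search were chosen after values were seen. GENCODE M21 gave lengths by symbol, and RefSeq (GRCm38.p6) promoter windows. Benjamini-Hochberg adjustment over assumed gene numbers, with genes outside the table at larger p, was tested on simulated data. Python 3.11.15, numpy 2.4.6, pandas 2.3.3 and matplotlib 3.10.9 were used.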

Additional observations from a re-analysis of the deposited data

How the results depend on the processing

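Of 31 values under other settings, 26 kept their direction and their side of the threshold or moved by less than 1.5 times. Several of these outcomes were fixed in advance by the main values, so this count is no measure of robustness. Read by the header of the deposited log2 column, all 4 directions turn, to log2 ratios of 1.51 for Pdyn, 1.46 for Penk, 1.34 for Adcyap1 and -0.69 for Vip, by construction. At p up to 0.001, 1 precursor (Penk) in place of 3 was lower, because the other 3 precursors are not admitted, beside 43.9% of all genes admitted. The 3 lower precursors were also counted at p up to 0.01 (beside 52.5% of all genes admitted), with at least 1 unit in both groups (62.1%) and with an absolute log2 ratio of 1 or more (29.8%), where Vip was left out. The main values of the 3 lower precursors pass each of these filters, so the count of 3 was fixed and tests nothing further. The list of further precursors added no gene, so its counts repeat those of the members. A pseudocount of 1 or 0.1 cannot turn a direction, so these settings bear on size only. The table's median of -0.34 is smaller in size than each of the 4 ratios, so its subtraction could not turn a direction either. Leaving choroid plexus and granule cell markers out of the background, chosen after seeing the data, gave 60.1% lower genes. Adjusted p-values over 10000 and 20000 assumed genes ran from 0.204 to 0.407 for Pdyn, 0.338 to 0.676 for Vip and 0.421 to 0.842 for Adcyap1, and from 5.32e-06 to 1.06e-05 for Penk. No paired analysis was possible because only 1 combined value per group was deposited, and for the same reason no mouse could be left out in turn. Depth is unknown, so what low values such as those of Adcyap1 can resolve cannot be stated.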
